A study of Mus musculus with 9 samples.

Results

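Serpins are a superfamily of proteins that share one fold, and most of them inhibit serine proteases by offering an exposed loop as bait: the protease cuts the loop, which then swings into the body of the serpin and drags the trapped enzyme with it. Some members have lost this activity and serve as collagen chaperones or signalling proteins. In the heart, serpins are made by fibroblasts, endothelium, muscle cells and infiltrating leukocytes, and act on clotting, complement, leukocyte proteases and the collagen matrix.

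Of 7 serpin genes listed for this description, 6 were found in the platform annotation of the arrays, among 20239 genes with 1 symbol each. They were Serpina3n, Serping1, Serpinf1, Serpinh1, Serpinb6a and Serpinb9, each with 1 probe set, and the listed gene Serpine2 was not analysed here. All 6 passed the filter on low values on all 9 arrays. The members were picked by name, with earlier results of these data known. Their shares beside those of all genes are therefore a description only.

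The samples were whole hearts from male C57BL/6 mice, in 3 groups of 3 hearts. The first group had transverse aortic constriction (TAC), a narrowing of the aorta that makes the left ventricle pump against a raised pressure, and carried an adeno-associated virus (AAV) for amino acids 1 to 201 of histone deacetylase 4, here called HDAC4-NT. The second had TAC and a luciferase virus, and the third a sham operation and the luciferase virus. Every mouse received its virus at 8 weeks of age, was operated on 4 weeks later and was killed after another 4 weeks. The cargo stood under an MLC (myosin light chain) promoter, which directs it to muscle cells of the heart. No sham group carried HDAC4-NT. The values are the authors' RMA log2 intensities, so a difference of 1 means a doubling of the array signal. They are comparable between hearts for 1 gene, but not between genes.

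Of the variance over the hearts, 55.27% lay on the first principal component and 20.01% on the second, on which luciferase TAC hearts 2 and 3 stood apart from the rest. Luciferase TAC heart 1 correlated at 0.986 to 0.987 with its own group and at 0.991 to 0.992 with the HDAC4-NT TAC hearts (Pearson's r across genes, a description only). Results that rest on hearts 2 and 3 are therefore also given without them, or with the value of each heart. That leaves 1 luciferase TAC heart, which the fit assumes to vary like the other groups, so the p-values of those fits measure no spread of its own. All 8 cardiomyocyte markers were measured, and their mean log2 level was 13.08 to 13.11 in HDAC4-NT TAC hearts, 13.02 to 13.11 in luciferase TAC hearts and 13.03 to 13.14 in sham hearts. Whole hearts hold many cell types, and in such tissue fewer cells of a type and less RNA per cell cannot be told apart. All other p-values measure the spread between hearts within the groups.

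After TAC with luciferase, 4 of the 6 serpins rose against sham (limma, adjusted p under 0.05), where 26.1% of all genes tested were called, 11.2% higher and 14.9% lower; the higher ones were 42.8% of those called, and 51.8% with cyclic loess scaling. These were Serpina3n, Serpinf1, Serping1 and Serpinb6a, in falling order of fold. After TAC with HDAC4-NT the same 4 and Serpinb9 rose against the same sham hearts, where 22.8% of all genes were called, 10.5% higher and 12.3% lower (46.2% of those called were higher, and 52.2% with cyclic loess scaling). Serpinh1, the collagen chaperone, passed the test in neither. Without luciferase TAC hearts 2 and 3, Serpina3n, Serpinf1, Serping1 and Serpinb6a were still called against sham with luciferase, at log2 fold changes of 3.24, 1.91, 1.12 and 0.49, with 1 luciferase TAC heart left. Between HDAC4-NT and luciferase TAC hearts none of the 6 was called by limma, none had an unadjusted p under 0.05, while of all genes 0.254% were called (0.143% higher and 0.111% lower) and 14.3% had an unadjusted p that low. Luciferase TAC and sham hearts were in separate ranges for 4 of 6 members, with TAC higher, as for 15.9% of all genes. HDAC4-NT TAC and sham hearts were so for 5 of 6, again with TAC higher, as for 18.3% of all genes. In all 6 members the HDAC4-NT and luciferase TAC hearts overlapped, where 20.4% of all genes had separate ranges. The median log2 fold change of the 6 was 0.66 for luciferase TAC against sham, beside -0.01 over all genes, and 0.62 for HDAC4-NT TAC against the same sham hearts, beside -0.01.

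**Figure D1:**
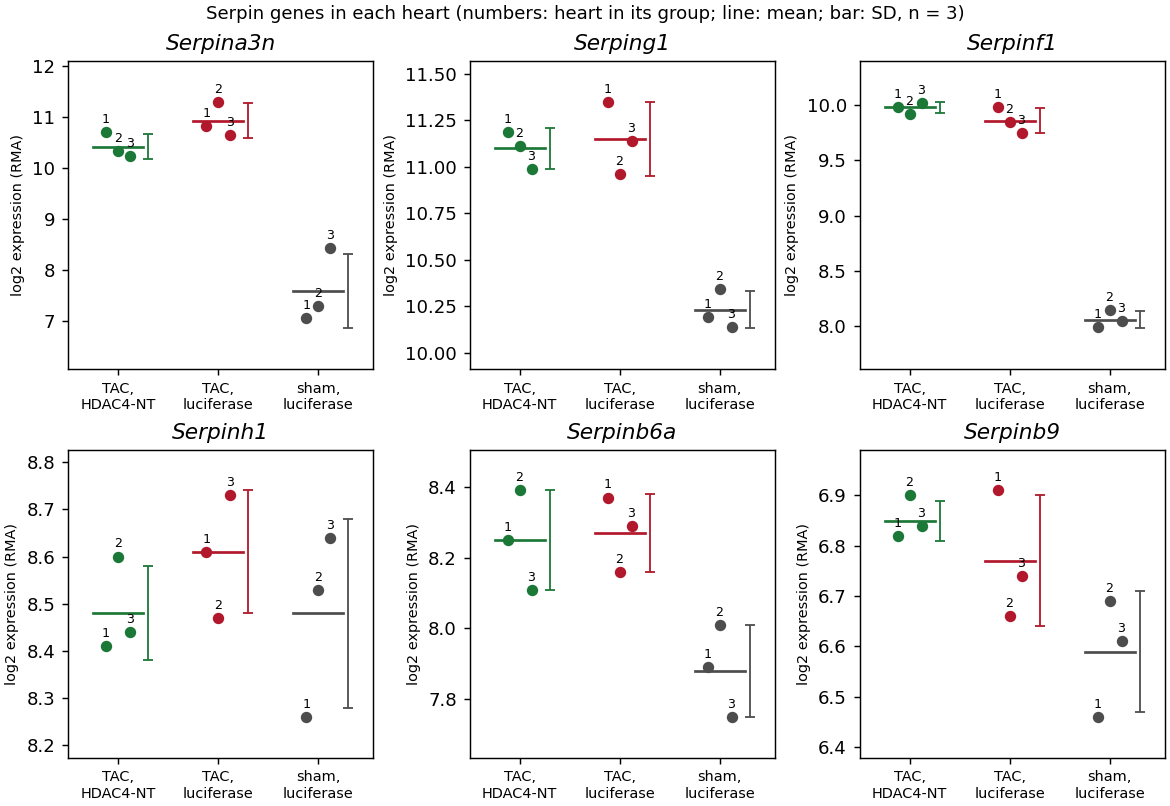
Log2 level of each serpin gene in each heart, with numbered points for hearts, a line for the group mean and a bar for its SD (n = 3), on axes that differ between genes and do not start at 0. Serpina3n and Serpinf1 are above 10.2 and 9.7 in every TAC heart and below 8.5 and 8.2 in every sham heart, while the Serpinh1 groups lie over each other.

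Serpina3n is a secreted serpin that in mice inhibits leukocyte proteases, among them cathepsin G, neutrophil elastase and granzyme B. It is a mouse member of the clade whose human relative is alpha-1-antichymotrypsin, an acute phase protein. Its log2 level was 10.70, 10.33 and 10.23 in HDAC4-NT TAC hearts, 10.82, 11.30 and 10.65 in luciferase TAC hearts and 7.05, 7.29 and 8.42 in sham hearts. Every TAC heart was above every sham heart, and sham heart 3 stood well above the other sham hearts. The mean was 10.42 ± 0.25 with HDAC4-NT, 10.93 ± 0.34 with luciferase after TAC and 7.58 ± 0.73 in sham (SD, n = 3 each).

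Serpina3n was thus 10.15-fold higher in luciferase TAC hearts than in sham (log2 fold change 3.34, SE 0.32, adjusted p = 0.000139), which ranked 4 of 12597 genes by size of change. It was 7.14-fold higher in HDAC4-NT TAC hearts than in the same sham hearts (log2 fold change 2.84, adjusted p = 0.000346). In each of these comparisons its change was the largest of the 6. HDAC4-NT TAC minus luciferase TAC was -0.51 log2 units, with a 95% confidence interval of -1.23 to 0.22 and an adjusted p of 0.540, so the order of the upper 2 groups was not settled. Without luciferase TAC hearts 2 and 3 this difference was -0.40 (adjusted p = 0.838) and the rise of luciferase TAC over sham was 3.24 (adjusted p = 0.00353), with 1 luciferase TAC heart left in each. Without sham heart 3 the rise over sham was 3.76 with luciferase and 3.25 with HDAC4-NT.

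The annotated gene lies on chromosome 12 at 104406646 to 104414334 (RefSeq, GRCm38.p6). The sources used here give no build for the arrays' probe sets. Its promoter window is shown because it is the serpin with the widest change. It holds none of the 6 motifs searched on both strands in the 250 bases before each annotated start, which were those of STAT factors (TTCNNNGAA), of AP-1 (TGANTCA) and of heat shock factors (GAANNTTC), the CCAAT box, the TATA box with the letters TATAAA, and the GC box with the letters GGGCGG. Of 32851 promoters of that length, 7.02% hold the STAT letters, 6.75% the AP-1 letters, 6.69% the heat shock letters, 33.8% CCAAT, 12.4% TATAAA and 32.7% a GC box. The 188 bases of the window that lie before the annotated gene (chr12:104406458-104406645, plus strand) read, from 5′ to 3′:

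Serpina3n: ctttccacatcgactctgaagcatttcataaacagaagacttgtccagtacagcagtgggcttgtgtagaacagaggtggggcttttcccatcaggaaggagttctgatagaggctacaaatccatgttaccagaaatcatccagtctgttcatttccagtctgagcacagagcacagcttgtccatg

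Genes of the acute phase and interleukin-6 family, signals that are known to induce Serpina3n in mice, were read beside it. The list of that name also holds Nr3c1, the glucocorticoid receptor gene, and Fkbp5, which codes for a co-chaperone of that receptor. Of 27 listed, 18 were tested. The signals Il6, Osm, Lif, Il11 and Il1b themselves were below the filter, as were the acute phase genes Saa3, Hp and Orm1. Il11ra1 was not in the annotation. In luciferase TAC against sham 8 were called higher and 1 lower, with a median log2 fold change of 0.66 against -0.01 over all genes. Of all genes, 11.2% were called higher there and 14.9% lower. One of the 8, Cebpd, named after its values were seen, passed the filter only through luciferase TAC hearts, so it had to differ, and 7 were called higher without it. In HDAC4-NT TAC against sham 3 were called higher and 1 lower, with a median of 0.06, while of all genes 10.5% were called higher and 12.3% lower. The median between HDAC4-NT and luciferase TAC hearts was -0.26 against 0.004, and all medians of this list include Cebpd. No gene of the list was called there by limma (7 lower, Cebpd among them, and 1 higher at an unadjusted p under 0.05). Of all genes, 14.3% had an unadjusted p that low.

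The count of 8 depended on single hearts: it was 12 without luciferase TAC heart 1, 4 without heart 2, 3 without heart 3 and 2 without hearts 2 and 3. It was 3 without sham heart 1, also 3 without sham heart 2, and 5 without HDAC4-NT TAC heart 1. Likewise, 7 of the 18, with Cebpd kept in the list, were called lower in HDAC4-NT than in luciferase TAC hearts once luciferase TAC heart 1 was left out.

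Timp1, an inhibitor of matrix metalloproteinases, was high in the TAC hearts and low in sham. Its log2 level was 8.01, 8.31 and 8.20 in HDAC4-NT TAC hearts, 8.15, 8.59 and 8.37 in luciferase TAC hearts and 5.66, 5.71 and 6.24 in sham hearts. It rose by 2.50 log2 units in luciferase TAC hearts and by 2.31 in HDAC4-NT TAC hearts against sham (adjusted p = 2.09e-05 and 3.08e-05), and as with Serpina3n sham heart 3 was the highest of its group. Fgl2, a fibrinogen-like protein, rose by 1.69 and 1.41 in those comparisons, and Stat3, which carries interleukin-6 signals to the nucleus, by 0.52 and 0.42. The Stat3 call with luciferase was lost without luciferase TAC hearts 2 and 3 (0.44, adjusted p = 0.0609, 1 heart left). Lifr, the receptor of leukaemia inhibitory factor, fell by 0.89 and 0.78.

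Lcn2, an iron-siderophore binding protein of the acute phase, read 6.42, 6.80 and 6.56 in HDAC4-NT TAC hearts, 7.40, 8.51 and 7.62 in luciferase TAC hearts and 6.64, 6.75 and 7.53 in sham hearts. Its HDAC4-NT TAC hearts lay below all luciferase TAC hearts, with a log2 difference of -1.25 (adjusted p = 0.1001) that was called without luciferase TAC heart 1 (-1.47, adjusted p = 0.0283). Il6ra, the interleukin-6 receptor, had a log2 difference of -0.24 between the same groups (adjusted p = 0.0611), and this too was called without luciferase TAC heart 1 (-0.27, adjusted p = 0.0176). Against sham, Il6ra was called higher in luciferase TAC hearts (0.16), a call lost in 7 of the 9 fits that leave out 1 heart. The mean log2 level of the 18 genes, Cebpd included, was 7.38 to 7.44 in HDAC4-NT TAC hearts. It was 7.46, 8.16 and 7.86 in luciferase TAC hearts and 7.13, 7.11 and 7.37 in sham hearts. Sham heart 3 was thus high in this list as well as in Serpina3n. The part of this list in the Serpina3n values was not tested.

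**Figure D2:**
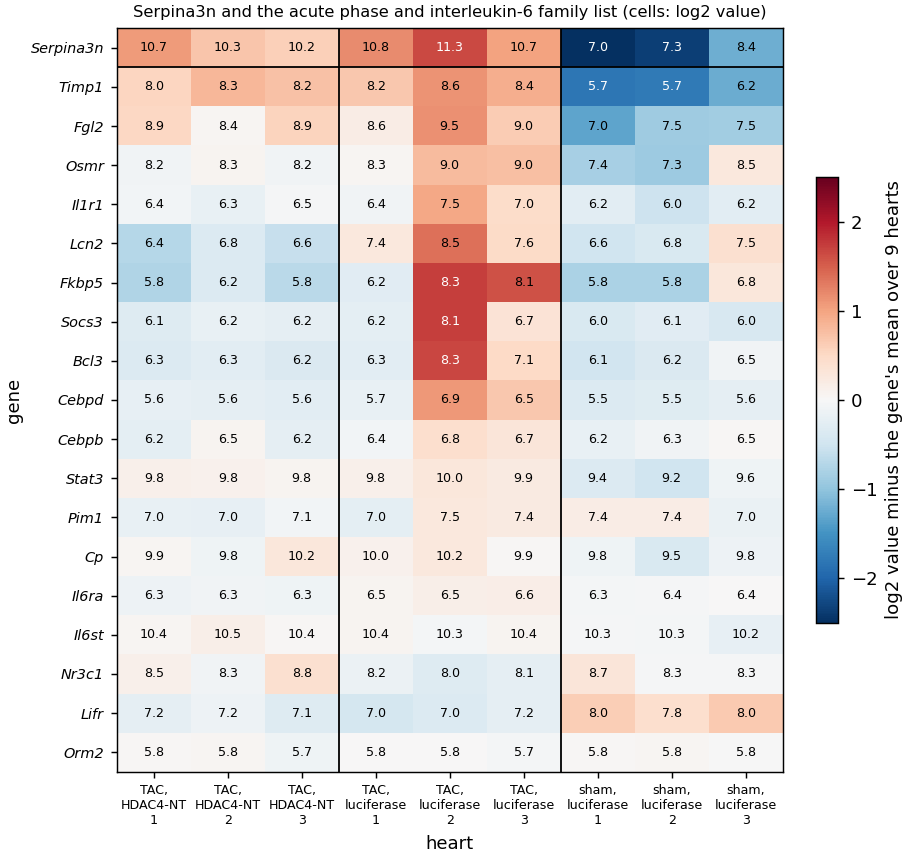
Each cell gives the log2 level of a gene (row) in a heart (column), coloured by its distance from that gene's mean over the 9 hearts. The top row is Serpina3n and the others are the 18 tested genes of the acute phase and interleukin-6 family list. Serpina3n is high in all 6 TAC hearts, while Socs3, Bcl3, Cebpd and Fkbp5, picked after their values were seen, are high mainly in luciferase TAC hearts 2 and 3.

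Serping1 encodes the C1 inhibitor, the plasma serpin that restrains the first complement proteases and the contact system. Its log2 level was 11.19, 11.11 and 10.99 in HDAC4-NT TAC hearts, 11.35, 10.96 and 11.14 in luciferase TAC hearts and 10.19, 10.34 and 10.14 in sham hearts. The TAC groups lay over each other, and all their hearts were above all sham hearts. Serping1 (chromosome 2, 84765360 to 84775444) was 1.90-fold higher in luciferase TAC hearts than in sham (log2 fold change 0.92, SE 0.10, adjusted p = 0.000262) and 1.83-fold higher in HDAC4-NT TAC hearts than in the same sham hearts (0.87, adjusted p = 0.000381). HDAC4-NT TAC minus luciferase TAC was -0.05 log2 units, with an interval of -0.28 to 0.18 (adjusted p = 0.897). Without luciferase TAC hearts 2 and 3 the difference between the TAC groups was -0.25 (adjusted p = 0.517), and the rise of luciferase TAC over sham was 1.12.

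Proteases that serpins inhibit, and receptors and ligands that bind serpins or their complexes, were read from a list of 34 genes, of which 17 were tested. In luciferase TAC against sham 7 were called higher and 4 lower, in HDAC4-NT TAC against sham 6 higher and 3 lower, and between the TAC groups none (limma; 3 higher and 1 lower at an unadjusted p under 0.05). The medians were -0.01, 0.01 and -0.02 log2 units, near those over all genes. Of all genes, 11.2% were called higher and 14.9% lower in the first comparison, and 10.5% and 12.3% in the second. Between the TAC groups, 14.3% of all genes had an unadjusted p under 0.05. Of the 17, C1s1, Plaur, Gzmm, F2 and Plau, singled out after their values were seen, were at or below the filter in every heart of 1 or more groups, so their calls give no support. Without these 5, luciferase TAC against sham gave 5 higher and 3 lower, and HDAC4-NT TAC against sham 5 higher and 2 lower. Between the TAC groups, Plaur was the 1 lower gene at an unadjusted p under 0.05 and Plau 1 of the 3 higher, so neither gives support there. Over all 17, the count of 4 lower with luciferase was 2 with luciferase TAC heart 2 left out.

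Of the targets of the C1 inhibitor, Masp1, a protease of the lectin pathway of complement, read 7.25, 7.25 and 7.39 in HDAC4-NT TAC hearts, 7.01, 7.06 and 6.94 in luciferase TAC hearts and 6.58, 6.75 and 6.56 in sham hearts. The 3 groups of Masp1 stood in separate ranges. It rose by 0.37 log2 units with luciferase and by 0.67 with HDAC4-NT against sham (adjusted p = 0.00366 and 0.000187). The difference between the TAC groups was 0.29 (adjusted p = 0.0896). That difference was called only with weighted arrays (0.28, adjusted p = 0.0303), which gave luciferase TAC heart 1 the least weight. C1ra, a classical pathway protease named after its values were seen, rose by 0.52 with luciferase and by 0.45 with HDAC4-NT. The C1ra call with HDAC4-NT was lost without HDAC4-NT TAC heart 1, HDAC4-NT TAC heart 2 or sham heart 3 (adjusted p = 0.0597, 0.0543 and 0.0573). Its partner C1s1 passed the filter only through TAC hearts, where it read 5.60 to 5.77, against 5.40 to 5.50 in sham hearts. F12, coagulation factor XII of the contact system and named likewise, was not called: its log2 fold change against sham was -0.02 with luciferase (adjusted p = 0.895) and -0.04 with HDAC4-NT (adjusted p = 0.723). Masp2 and the plasma kallikrein gene Klkb1, other targets, were below the filter.

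Lrp1, an endocytic receptor that clears complexes of serpins with proteases, rose by 1.32 log2 units with luciferase and by 1.40 with HDAC4-NT against sham (adjusted p = 2.73e-05 and 2.05e-05). Its log2 level was 10.12, 10.22 and 9.99 in HDAC4-NT TAC hearts, 10.17, 9.91 and 10.01 in luciferase TAC hearts and 8.60, 8.84 and 8.69 in sham hearts, with the TAC hearts all above sham. Vldlr, a related receptor, fell by 0.56 and 0.41 log2 units in the same comparisons. F2r, the thrombin receptor, rose by 1.17 and 1.06. Plat, tissue plasminogen activator, named after its values were seen, rose by 0.61 and 0.48. The Plat call with luciferase was lost without luciferase TAC hearts 2 and 3 (0.33, adjusted p = 0.0695, 1 heart left), and that with HDAC4-NT without HDAC4-NT TAC heart 1, HDAC4-NT TAC heart 3 or sham heart 2 (adjusted p = 0.0504, 0.0627 and 0.0585). F3, tissue factor, fell by 0.30 with luciferase against sham and had a log2 difference of 0.33 between HDAC4-NT and luciferase TAC hearts (adjusted p = 0.0844). That difference was called by limma without luciferase TAC heart 1 (0.39, adjusted p = 0.0148) and with weighted arrays (0.36, adjusted p = 0.0123). Both settings reduce the part of that heart. The F3 call against sham was lost without luciferase TAC heart 2 or heart 3 (adjusted p = 0.052 and 0.0533) and its value was -0.17 (adjusted p = 0.272) without both, with 1 heart left. The leukocyte proteases Ctsg, Elane and Gzmb, targets of Serpina3n or Serpinb9, were below the filter, as were Prtn3, Gzma and Prf1, the perforin gene.

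Serpinf1 encodes pigment epithelium-derived factor, a secreted serpin without inhibitory activity that restrains blood vessel growth and binds collagen. Its log2 level was 9.98, 9.92 and 10.02 in HDAC4-NT TAC hearts, 9.98, 9.85 and 9.75 in luciferase TAC hearts and 7.99, 8.15 and 8.05 in sham hearts. The hearts of each group lay close together, and every TAC heart was far above every sham heart. Serpinf1 was 3.47-fold higher in luciferase TAC hearts than in sham (log2 fold change 1.79, SE 0.07, adjusted p = 1.71e-06) and 3.76-fold higher in HDAC4-NT TAC hearts than in the same sham hearts (1.91, adjusted p = 8.81e-07). It ranked 33 and 22 of 12597 genes by size of change. HDAC4-NT TAC minus luciferase TAC was 0.12 log2 units, with an interval of -0.04 to 0.27 (adjusted p = 0.490), and -0.00048 without luciferase TAC hearts 2 and 3.

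Pnpla2, a triglyceride lipase that has also been described as a receptor of pigment epithelium-derived factor, fell by 0.30 log2 units with luciferase and by 0.39 with HDAC4-NT against sham. Its call with luciferase was lost without luciferase TAC hearts 2 and 3 (-0.17, adjusted p = 0.155, 1 heart left). The promoter window of Serpinf1 is shown because its change had the smallest SE of the 6. It holds 3 CCAAT motifs, in capitals, whose first bases lie 241, 160 and 148 bases before the annotated start on chromosome 11 (gene at 75410029 to 75422623, minus strand). The window of 250 bases (RefSeq, GRCm38.p6, chr11:75422624-75422873, minus strand) reads:

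Serpinf1: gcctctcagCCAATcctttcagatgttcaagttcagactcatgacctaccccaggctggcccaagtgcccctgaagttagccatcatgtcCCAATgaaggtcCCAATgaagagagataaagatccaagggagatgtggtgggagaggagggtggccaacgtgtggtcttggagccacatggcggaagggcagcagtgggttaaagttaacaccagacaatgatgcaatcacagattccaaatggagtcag

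Markers of fibroblasts, activated fibroblasts, macrophages and other cell types were read beside the serpins. Of all genes, 11.2% were called higher in luciferase TAC hearts and 10.5% in HDAC4-NT TAC hearts against sham, and 14.9% and 12.3% lower. Of 10 fibroblast markers, 5 were called higher in luciferase TAC hearts and 6 in HDAC4-NT TAC hearts against sham, and their mean log2 level was 8.87 to 8.99 in HDAC4-NT TAC hearts, 8.70 to 8.87 in luciferase TAC hearts and 8.23 to 8.32 in sham hearts. Of 7 activated fibroblast markers tested, 6 were called higher in each of those comparisons, and Fap was below the filter. One of the 6, Comp, named after its values were seen, passed the filter only through TAC hearts, so it had to differ, and 5 were called without it. With Comp included, the mean log2 level of the 7 was 8.47 to 8.62 with HDAC4-NT, 8.39 to 8.57 with luciferase after TAC and 6.78 to 6.86 in sham hearts. Of 12 macrophage and monocyte markers tested, 5 and 6 were called higher. Their mean level was 7.28 to 7.35 with HDAC4-NT, 7.33 to 7.43 with luciferase after TAC and 6.92 to 7.09 in sham hearts, while Ccr2 was below the filter and Ly6c2 was not tested. Median log2 fold changes with luciferase and with HDAC4-NT were 0.28 and 0.37 for fibroblast markers, against -0.01 over all genes. They were 0.39 and 0.39 for macrophage and monocyte markers, and 1.61 and 1.63 for activated fibroblast markers, Comp included. Of 10 endothelial markers, 1 was called higher and 2 lower with luciferase, and 1 and 1 with HDAC4-NT. Of 7 pericyte and smooth muscle markers tested, 1 was lower with luciferase, and 2 were higher and 2 lower with HDAC4-NT. Of 2 epicardial markers tested, 1 was higher with luciferase. No atrial, mast cell or platelet marker tested was called. The 4 atrial markers averaged 5.94 to 6.94 with HDAC4-NT, 5.98 to 8.07 with luciferase after TAC and 6.43 to 7.49 in sham hearts. The part of these cell types in the serpin values was not tested.

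Serpinh1 encodes a chaperone of the endoplasmic reticulum that binds procollagen and has no known protease target. Its log2 level was 8.41, 8.60 and 8.44 in HDAC4-NT TAC hearts, 8.61, 8.47 and 8.73 in luciferase TAC hearts and 8.26, 8.53 and 8.64 in sham hearts. The 3 groups lay over each other, and the sham hearts were the most spread. Luciferase TAC minus sham was 0.13 log2 units, with an interval of -0.11 to 0.37 (adjusted p = 0.431), and HDAC4-NT TAC minus sham was 0.01, with an interval of -0.23 to 0.24 (adjusted p = 0.977). HDAC4-NT TAC minus luciferase TAC was -0.12, with an interval of -0.36 to 0.11 (adjusted p = 0.687). Serpinh1 was called in none of the 18 alternative fits.

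Its collagen clients and the enzymes that modify collagen were read from a list of 30 genes, of which 27 were tested. In luciferase TAC against sham 17 were called higher and 4 lower, with a median log2 fold change of 0.36 against -0.01 over all genes. In HDAC4-NT TAC against sham 18 were called higher and 4 lower, with a median of 0.40, a lower count that was 2 without HDAC4-NT TAC heart 1, sham heart 1 or sham heart 3. Between the TAC groups none was called by limma (2 lower and none higher at an unadjusted p under 0.05). Of all genes, 14.3% had an unadjusted p that low. Against sham, 11.2% of all genes were called higher and 14.9% lower with luciferase, and 10.5% and 12.3% with HDAC4-NT.

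Col1a1, a chain of type I collagen, read 9.15, 9.23 and 9.28 in HDAC4-NT TAC hearts, 9.23, 8.92 and 8.98 in luciferase TAC hearts and 7.46, 7.71 and 7.65 in sham hearts. It rose by 1.44 log2 units with luciferase and by 1.62 with HDAC4-NT (adjusted p = 2.00e-05 and 1.06e-05). Col1a2 rose by 1.27 and 1.43, Col3a1 by 1.01 and 1.19 and Col6a1 by 0.84 and 0.85. Lox, which cross-links collagen, rose by 1.90 and 1.36, and P3h2, a prolyl hydroxylase of collagen, by 1.34 and 1.22. Lox read 6.90, 6.61 and 7.22 in HDAC4-NT TAC hearts and 7.27, 7.64 and 7.44 in luciferase TAC hearts. The Lox difference between these groups was -0.54 (adjusted p = 0.147). It was called only with weighted arrays (-0.60, adjusted p = 0.0396), which gave luciferase TAC heart 1 the least weight. Plod2, a lysyl hydroxylase of collagen, rose by 1.14 and 0.64. Its difference between HDAC4-NT and luciferase TAC hearts was -0.50 (limma, adjusted p = 0.223). Plod2 read 7.63, 8.28 and 8.40 in luciferase TAC hearts, so heart 1 lay within the HDAC4-NT values of 7.72, 7.57 and 7.52. The difference was called without luciferase TAC heart 1 (-0.73, adjusted p = 0.00123) and with weighted arrays (-0.58, adjusted p = 0.0297). Both settings reduce the part of that heart. The Plod2 call with HDAC4-NT was lost in 5 single-heart omissions, without HDAC4-NT TAC heart 1 (adjusted p = 0.0822), HDAC4-NT TAC heart 2 (0.0534) or any 1 of the sham hearts (0.0541 to 0.0711).

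The genes of this list that were called lower, named after their values were seen, included chaperones of the endoplasmic reticulum. Hspa5 fell by 0.53 log2 units with luciferase and by 0.74 with HDAC4-NT, and Hsp90b1 by 0.54 and 0.38. The Hsp90b1 call with HDAC4-NT was lost without HDAC4-NT TAC heart 1, HDAC4-NT TAC heart 2, sham heart 1 or sham heart 3. P3h4, a partner of collagen lysyl hydroxylation, fell by 0.63 and 0.56.

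**Figure D3:**
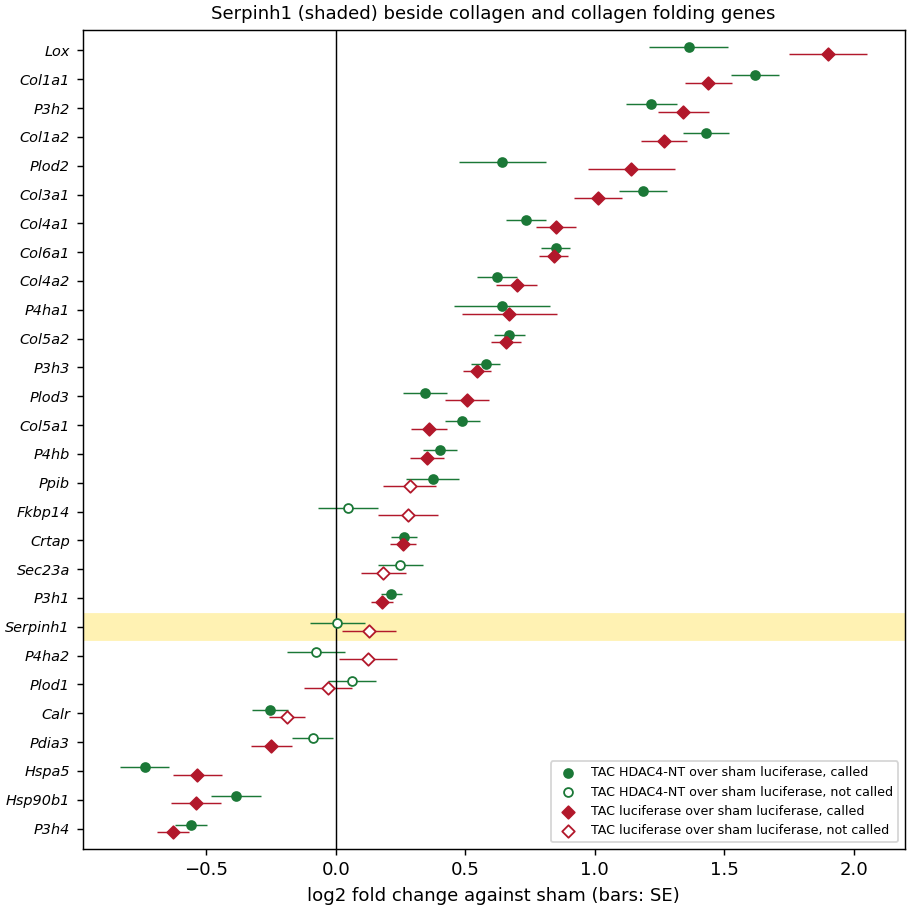
Log2 fold change against sham, with its SE, of Serpinh1 (shaded) and the 27 tested genes of the collagen list, for HDAC4-NT TAC hearts (circles) and luciferase TAC hearts (diamonds); filled marks passed an adjusted p of 0.05. Lox, Col1a1, P3h2, Col1a2 and Col3a1 lie above 1 in both comparisons, Serpinh1 lies near 0 with open marks, and Hspa5, Hsp90b1 and P3h4 lie below 0.

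The promoter window of Serpinh1 is shown beside that of Serpinf1 as the member that passed no test. It holds 1 GC box, in capitals, 37 to 32 bases before the annotated start on chromosome 7 (gene at 99345375 to 99353239, minus strand). The window of 250 bases (RefSeq, GRCm38.p6, chr7:99353240-99353489, minus strand) reads:

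Serpinh1: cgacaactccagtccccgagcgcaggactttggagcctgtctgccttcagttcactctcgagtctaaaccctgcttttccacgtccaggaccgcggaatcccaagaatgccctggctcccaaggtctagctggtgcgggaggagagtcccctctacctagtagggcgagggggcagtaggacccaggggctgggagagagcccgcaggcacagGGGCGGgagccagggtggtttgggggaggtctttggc

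Serpinb6a is an intracellular serpin of clade B, found in the cytosol of many cell types, and its human counterpart inhibits cathepsin G. In HDAC4-NT TAC hearts it read 8.25, 8.39 and 8.11 on the log2 scale, against 8.37, 8.16 and 8.29 in luciferase TAC hearts and 7.89, 8.01 and 7.75 in sham hearts. The highest sham heart was just below the lowest TAC heart, and the TAC groups lay over each other. Serpinb6a was 1.31-fold higher in luciferase TAC hearts than in sham (log2 fold change 0.39, SE 0.09, adjusted p = 0.0137) and 1.29-fold higher in HDAC4-NT TAC hearts than in the same sham hearts (0.37, adjusted p = 0.0196). The second call was lost without HDAC4-NT TAC heart 1 (adjusted p = 0.0601), HDAC4-NT TAC heart 2 (0.0689), sham heart 1 (0.0513) or sham heart 3 (0.0675). HDAC4-NT TAC minus luciferase TAC was -0.02 log2 units, with an interval of -0.23 to 0.19 (adjusted p = 0.960).

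The gene lies on chromosome 13 at 33917918 to 34002794 (minus strand). Its upstream window is shown because it is the only one of the 6 windows found for 5 members that holds the STAT letters, which 7.02% of all windows hold. The STAT match, TTCCGGGAA, lies 77 to 69 bases before the annotated start, and GC boxes on the opposite strand (CCGCCC) lie 57 to 52 and 23 to 18 bases before it. Matches are in capitals and do not overlap. The window (RefSeq, GRCm38.p6, chr13:34002795-34003044, minus strand) reads:

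Serpinb6a: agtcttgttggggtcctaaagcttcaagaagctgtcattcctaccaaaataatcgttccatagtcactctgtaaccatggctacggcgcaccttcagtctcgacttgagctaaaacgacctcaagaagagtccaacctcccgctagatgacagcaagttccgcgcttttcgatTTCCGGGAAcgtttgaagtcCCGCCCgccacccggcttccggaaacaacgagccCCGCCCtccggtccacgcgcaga

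Serpinb9 is also of clade B and inhibits granzyme B inside lymphocytes and other cells, which shields them from their own granules. It read 6.82, 6.90 and 6.84 in HDAC4-NT TAC hearts, 6.91, 6.66 and 6.74 in luciferase TAC hearts and 6.46, 6.69 and 6.61 in sham hearts. The HDAC4-NT TAC hearts were above all sham hearts, while the luciferase TAC hearts overlapped with both groups. Serpinb9 (chromosome 13, 32997061 to 33017955) was 1.20-fold higher in HDAC4-NT TAC hearts than in sham (log2 fold change 0.27, SE 0.08, adjusted p = 0.0363). Luciferase TAC minus sham was 0.19, with an interval of 0.01 to 0.36 before adjustment and an adjusted p of 0.114, and HDAC4-NT TAC minus luciferase TAC was 0.08, with an interval of -0.09 to 0.26 (adjusted p = 0.735). A call against sham with one virus and not with the other does not show a difference between the viruses.

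The Serpinb9 call was lost in 8 of 18 alternative fits. These were the fits without HDAC4-NT TAC heart 1 (adjusted p = 0.0808), heart 2 (0.109) or heart 3 (0.0831), without luciferase TAC heart 3 (0.0508), without sham heart 1 (0.111) or sham heart 3 (0.0741), with no filter on low values (0.0576) and with the replicate number as a block (0.0732). Of 12 markers of T, B and NK cells, 3 were tested and none was called by limma, and 9 were not tested, among them Cd3d, Cd8a and Nkg7. Their mean log2 level was 5.82 to 5.95 in HDAC4-NT TAC hearts, 5.78 to 6.24 in luciferase TAC hearts and 5.75 to 5.85 in sham hearts.

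**Figure D4:**
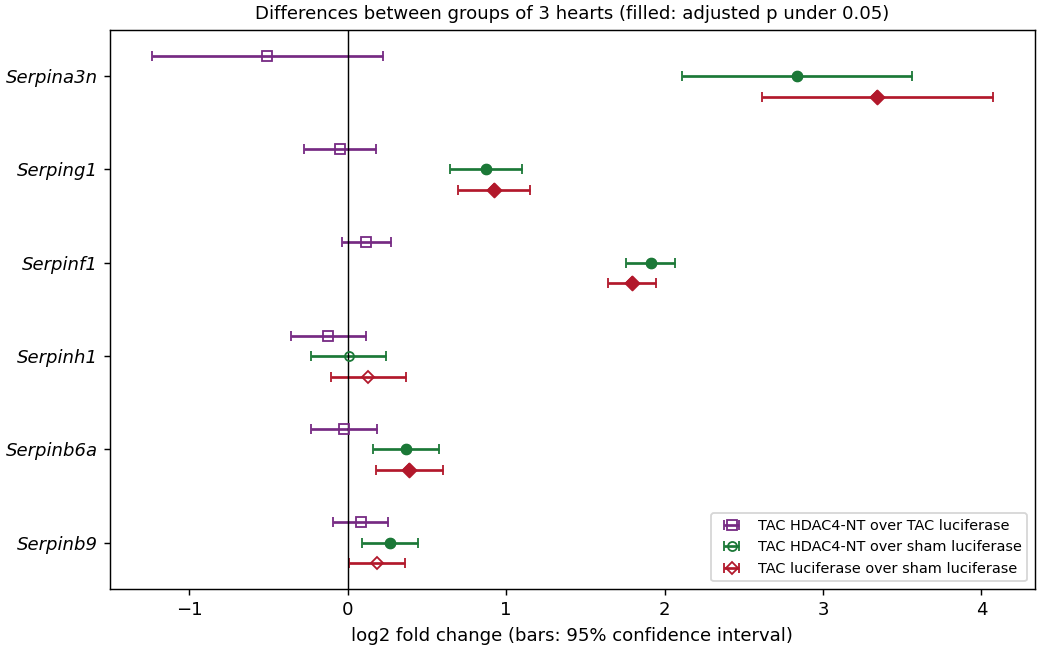
Log2 fold change of each serpin gene with its 95% confidence interval, for HDAC4-NT TAC over luciferase TAC (squares), HDAC4-NT TAC over sham (circles) and luciferase TAC over sham (diamonds); filled marks passed an adjusted p of 0.05. All squares are open and their intervals cross 0, and the Serpina3n interval is the widest of the 6 in each comparison.

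The annotation names 48 other serpins, of which 43 stayed below the filter, at log2 levels of 5.04 to 5.72, and 5 were tested. Of these 5, 1 was called higher in luciferase TAC against sham and 2 in HDAC4-NT TAC against sham, beside 11.2% and 10.5% of all genes. None was called between the TAC groups by limma. At an unadjusted p under 0.05, 1 was higher and 1 lower there, beside 14.3% of all genes. Serpina3f, a mouse paralog of Serpina3n, read 5.66, 5.66 and 5.61 in HDAC4-NT TAC hearts, 5.75, 5.95 and 5.84 in luciferase TAC hearts and 5.37, 5.34 and 5.52 in sham hearts. It passed the filter of 5.66 only through TAC hearts, so it had to differ, and its counts give no support. The fit gave 0.43 with luciferase (adjusted p = 0.00165) and 0.23 with HDAC4-NT against sham (adjusted p = 0.0361). The second was past 0.05 with any 1 of the HDAC4-NT TAC hearts, luciferase TAC heart 3, sham heart 1 or sham heart 2 left out (0.0517 to 0.109).

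Serpinb6b, a paralog of Serpinb6a, read 9.70, 9.38 and 9.91 in HDAC4-NT TAC hearts, 9.40, 9.27 and 9.39 in luciferase TAC hearts and 9.17, 9.02 and 8.95 in sham hearts. All hearts of both TAC groups were above all sham hearts. It was 1.53-fold higher in HDAC4-NT TAC hearts than in sham (log2 fold change 0.62, SE 0.12, adjusted p = 0.00573). Luciferase TAC minus sham was 0.31 (adjusted p = 0.0924). That rise was called without HDAC4-NT TAC heart 2 or heart 3 (adjusted p = 0.0258 and 0.0478) and with the luciferase TAC and sham arrays alone (adjusted p = 0.0274). HDAC4-NT TAC minus luciferase TAC was 0.31 (adjusted p = 0.280). Serpine3, Serpinf2 and Serpini1 were called in no comparison. The paralogs below the filter lay at 5.18 to 5.31 (3 of Serpina3), 5.38 to 5.51 (3 of Serpinb6) and 5.04 to 5.72 (6 of Serpinb9). Paralogs of these clusters are close in sequence, and the probe positions were not used here, so how far their signals mix is uncertain.

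The genes whose centred log2 values came nearest to each called serpin over the 9 hearts were named by the root mean square difference, as a description without a test. All values come from the same 9 hearts. For Serpina3n they were Mfap5, a microfibril glycoprotein, at 0.403, Timp1 at 0.454 and Myh7, a myosin heavy chain of slow fibres and the fetal ventricle, at 0.491 log2 units, against a median of 1.53 over all genes. For Serpinf1 they were Pi16 at 0.0907, Fstl1 at 0.126 and Svep1 at 0.129, against 0.886. Fstl1 and Svep1 are secreted or matrix glycoproteins. For Serping1 they were Mxra7 at 0.0745, Gpm6b at 0.0854 and Ccnd2, a cyclin, at 0.0901, against 0.452.

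For Serpinb6a the nearest were Dynll1, a dynein light chain, at 0.0504, Psmd8, a proteasome subunit, at 0.0609 and Acsl5, an acyl-CoA synthetase, at 0.0752, against 0.233. For Serpinb9 they were Sh3bp1 at 0.0385, Scarf2 at 0.0436 and Arf3, a small GTPase, at 0.0470, against 0.177.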

How the data were processed

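Total RNA came from whole hearts by Trizol extraction, and per the labels' protocols it was hybridised as biotinylated cRNA in the Affymetrix way. The deposited values are log2 expression; per the submitters' processing notes the authors used RMA. No version of RMA and no genome build is given in the sources used here. Sorted values were identical on all 9 arrays and were not centred per gene. The table gives neither detection calls nor depth, so precision is set by the number of arrays.

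Of 21225 probe sets, 20239 had 1 gene symbol in the platform annotation and 986 were not listed. All 20239 matched a RefSeq gene table (GRCm38.p6) by gene ID. Genes above the 40th percentile of all values (log2 5.66) on 3 or more of the 9 arrays were tested, 12597 in all. A single limma 3.58.1 model (lmFit, contrasts.fit, eBayes; R 4.3.3) covered all arrays, with 6 residual degrees of freedom and 3.23 from the prior. A gene was called at a Benjamini-Hochberg adjusted p under 0.05 over the genes tested. Groups came from the labels, which give 3 male animals each. The comparisons with sham share its arrays, and no overlap between them was taken as a result.

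The serpins, the lists and the tests were chosen with earlier results of these data known. Named are all serpins found, every other serpin called, up to 4 called genes with the smallest p of each list and comparison (up to 2 where none was called), and the 3 genes nearest to each called serpin. Others are marked in the text. No list was tested as a set. Promoter sequences came from RefSeq (GRCm38.p6) and were found for 5 of the 6 serpins.

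Settings tried were leaving out each array, or luciferase TAC hearts 2 and 3 together; a block for the replicate number; a random block for the first number in the sample code, of unstated meaning; cyclic loess scaling; weighted arrays; a fit on 2 groups alone; a robust prior with a trend; and no filter or one at the 60th percentile. Figures used matplotlib 3.10.9 in Python 3.11.15.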

Additional observations from a re-analysis of the deposited data

How the results depend on the processing

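Over 18 alternative settings, 301 of 324 serpin values kept their direction and their side of the threshold, 12 lost a call and 11 changed sign. The calls lost were those of Serpinb6a and Serpinb9 in HDAC4-NT TAC against sham, given above, so that 3 to 5 serpins were called there with 1 heart left out, and 4 in luciferase TAC against sham. The sign changes were of values near 0, and the cause was not tested. Between HDAC4-NT and luciferase TAC hearts, Serpinf1 was at -0.00048 and Serpinb9 at -0.06 without luciferase TAC hearts 2 and 3. With weighted arrays Serping1 was at 0.03 and Serpinb6a at 0.01 there. With 1 heart left out, Serping1 ranged from -0.15 to 0.05 (above 0 without HDAC4-NT TAC heart 3 or luciferase TAC heart 1) and Serpinb6a from -0.09 to 0.05 (above 0 without the same hearts). In HDAC4-NT TAC against sham, Serpinh1 was at -0.03 with weighted arrays and from -0.10 to 0.09 with 1 heart left out (below 0 without HDAC4-NT TAC heart 2 or sham heart 1), and F3 from -0.01 to 0.10. For the other named genes, 1145 of 1251 values kept their direction and call, 80 lost a call, 21 gained one and 5, of F3 and F12, changed sign. F12 ranged from -0.07 to 0.02 in luciferase TAC and from -0.09 to 0.01 in HDAC4-NT TAC against sham with 1 heart left out, and was at 0.02 in the first without luciferase TAC hearts 2 and 3. The fits without those hearts rest on 1 luciferase TAC heart, assumed to vary like the other groups.

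Between HDAC4-NT and luciferase TAC hearts 32 genes were called. The count was 10 with no filter, 103 with the stricter filter, 75 with the trended and robust prior, 827 with weighted arrays, 177 with the sample code as a random block, 10 without luciferase TAC hearts 2 and 3, and 1 to 697 with 1 heart left out. With only the arrays of these 2 groups, limma called 0 (1868 at an unadjusted p under 0.05). None of the 6 serpins was called in any of these. In luciferase TAC against sham 3283 genes were called, 1926 without luciferase TAC hearts 2 and 3 and 2435 to 3230 with 1 heart left out. In HDAC4-NT TAC against sham 2872 were called, 1921 to 3161 with 1 heart left out.

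With weighted arrays, 7 acute phase genes, 2 collagen genes, 1 protease-list gene and 1 other serpin were called lower and 2 protease-list genes higher with HDAC4-NT than with luciferase after TAC. The other serpin was Serpina3f, which passed the filter only through TAC hearts, so that call gives no support. Cebpd of the acute phase list and Plaur of the protease list passed only through luciferase TAC hearts, and the list counts here keep such genes. With the sample code as a random block, 1 acute phase gene was called lower. In luciferase TAC against sham the acute phase count of 8 higher was 4 with no filter, 5 with the trended and robust prior, 4 with only those 2 groups, 2 without luciferase TAC hearts 2 and 3, and 3 to 12 with 1 heart left out. The protease-list count of 4 lower was 2 without those 2 hearts, and 2 to 3 with 1 heart left out. Other serpins called higher were 1, and 2 with no filter, 0 with the stricter filter, 2 with only those 2 groups, and 1 to 2 with 1 heart left out. In HDAC4-NT TAC against sham they were 2, and 4 with no filter, 1 with the stricter filter, 1 with the replicate block and 1 to 2 with 1 heart left out. With 1 heart left out, list counts between the TAC groups were 0 to 7 lower (acute phase), 0 to 2 lower (collagen) and 0 to 1 in each direction (proteases), and collagen genes lower in HDAC4-NT TAC than in sham were 2 to 4.

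No first number of the sample code is shared between groups. All sham hearts share one, as do luciferase TAC hearts 2 and 3, and HDAC4-NT TAC hearts 2 and 3. As a random block it had a correlation of -0.11. With cyclic loess scaling the higher share of the genes called was 51.8% in luciferase TAC and 52.2% in HDAC4-NT TAC against sham, beside 42.8% and 46.2%, so that most called genes were then higher and not lower.

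The replicate numbers are not shown to pair the hearts: deviations of same-numbered hearts from their group means correlated at -0.12 to 0.20. With the replicate number as a block, 106 genes were called between the TAC groups, and of the serpin calls that of Serpinb9 (adjusted p = 0.0732) and that of Serpina3f with HDAC4-NT (0.06) were lost. With 3 hearts a group, the median SE of a log2 fold change was 0.07.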
